A study of Mus musculus with 20 samples.

Results

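The keratin genes of the mouse were followed across medullary thymic epithelial cells (mTEC) that differ in genotype at Trp53 and in maturity. Members were all rows of the deposited gene table whose symbol is Krt followed by a number and at most 1 further letter, which left out keratin-associated proteins. This rule took 54 of 51810 genes, and none of the measured values entered it. The 54 are 28 type I keratins, 27 of them on chromosome 11 and Krt18 on chromosome 15, and 26 type II keratins on chromosome 15. All but Krt74, a pseudogene in GENCODE M21, are annotated as protein coding, and all 54 entered the tests.

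RNA was sequenced from 4 groups with 3 libraries each: mTEChi of the genotype labelled Trp53-cHyper (cHyper), mTEChi of Trp53 wild type (WT), mTEClo of cHyper and mTEClo of WT. Thymi were taken from mice aged 4 to 5 weeks in every group, EpCAM-positive cells were enriched on beads, and 75000 mTEC were sorted per library. The mTEClo and mTEChi names are in common use for mTEC with little and with much MHC class II and CD80 on their surface. The sources used here give neither the gates nor the meaning of cHyper nor the promoter that drives any conditional allele. The series is titled as a study of p53, chromatin noise and tolerance. No label ties libraries to separate animals, and a p-value here covers the variation among libraries, which may be technical.

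Keratins are the intermediate filament proteins of epithelia, and each filament needs a type I and a type II partner. The pair in use marks the epithelium: KRT5 with KRT14 in basal cells, KRT8 with KRT18 in simple epithelia, KRT1 with KRT10 in suprabasal epidermis, KRT4 with KRT13 in mucosa, and hair keratins in the hair shaft. In the thymus KRT5 and KRT14 are the usual stains of the medulla, and mTEC are known to transcribe genes of many peripheral tissues, part of them under the regulator AIRE.

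Library totals ran from 22023800 to 47926607 fragments. Replicate 3 of every group had at most 25306137 fragments, 0 fragments of Ddx3y and Xist at 1049 counts per 1000000 (CPM) or more. Replicates 1 and 2 had at least 42075886 fragments, at least 2745 of them from Ddx3y, and at most 7.77 CPM of Xist. Sex and depth therefore went with the replicate number, in the same way in each group. The spread within a group thus includes a difference of sex. Epcam averaged between 469 and 555 CPM in the 4 groups. Aire averaged 1644 ± 321 CPM in cHyper mTEChi, 1919 ± 2.82 in WT mTEChi, 44.5 ± 6.46 in cHyper mTEClo and 14.3 ± 2.6 in WT mTEClo (SD, n = 3 each). Trp53 itself averaged 134 ± 4.65 CPM in cHyper mTEChi and 101 ± 4.6 in WT mTEChi, 166 ± 11.6 in cHyper mTEClo and 137 ± 0.958 in WT mTEClo. On the fit, Trp53 was called higher in cHyper mTEChi (log2 fold change 0.41, edgeR adjusted p = 0.02) and not in mTEClo (0.27, 0.0553). Cdkn1a, a well-known p53 target, was lower in cHyper in mTEChi (log2 fold change -0.73, edgeR adjusted p = 0.00418) and in mTEClo (-0.89, edgeR adjusted p = 0.000328). Mdm2, another known p53 target, was not called in mTEChi (-0.25, edgeR adjusted p = 0.192) or in mTEClo (0.09, edgeR adjusted p = 0.576).

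Levels between genes were compared in transcripts per 1000000 (TPM), which divide by gene length. Keratins summed to 7682 ± 511 TPM in cHyper mTEChi and 6732 ± 412 in WT mTEChi, against 15570 ± 391 in cHyper mTEClo and 17390 ± 1407 in WT mTEClo (SD, n = 3 each). Every mTEClo library lay above every mTEChi library in this sum. Krt5, Krt14, Krt17, Krt7, Krt8 and Krt18 made up 81.8% of keratin TPM in cHyper mTEChi and 78.8% in WT mTEChi, against 96.6% in cHyper mTEClo and 96.9% in WT mTEClo. The other 48 keratins summed to 1392 ± 108 TPM in cHyper mTEChi and 1429 ± 145 in WT mTEChi, against 532 ± 50.6 in cHyper mTEClo and 532 ± 32.1 in WT mTEClo. In sum the 6 abundant keratins were thus lower, and the other 48 higher, in mTEChi than in mTEClo libraries of either genotype. In bulk libraries, fewer cells with a transcript and less of it per cell cannot be told apart.

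The order of the leading keratins differed between the cell types. In mTEClo the highest was Krt5, at 5020 ± 316 TPM in cHyper and 5724 ± 764 in WT, followed by Krt17, Krt14, Krt18 and Krt8. In mTEChi the highest was Krt17, a keratin of stressed epidermis and skin appendages, at 1911 ± 177 TPM in cHyper and 1740 ± 183 in WT. In WT mTEChi the next were Krt8 (1226 ± 45.4 TPM) and Krt18 (1172 ± 23.7 TPM), which did not differ beyond their spread, then Krt5 (760.3 ± 139 TPM) and Krt14 (336 ± 35.8 TPM). In cHyper mTEChi Krt5 stood second at 1388 ± 274 TPM, within the spread of Krt18 at 1144 ± 125 TPM and just above Krt8 at 1055 ± 38.4 TPM. The Krt5 to Krt8 ratio of TPM was 1.32 ± 0.298 in cHyper mTEChi and 0.623 ± 0.127 in WT mTEChi, against 4.99 ± 0.523 in cHyper mTEClo and 5.12 ± 0.634 in WT mTEClo. The ratio of type I to type II keratins was 1.49 ± 0.046 in cHyper mTEChi and 1.55 ± 0.026 in WT mTEChi, against 1.35 ± 0.033 and 1.34 ± 0.058 in cHyper and WT mTEClo. Each mTEChi library lay above each mTEClo library.

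**Figure D1:**
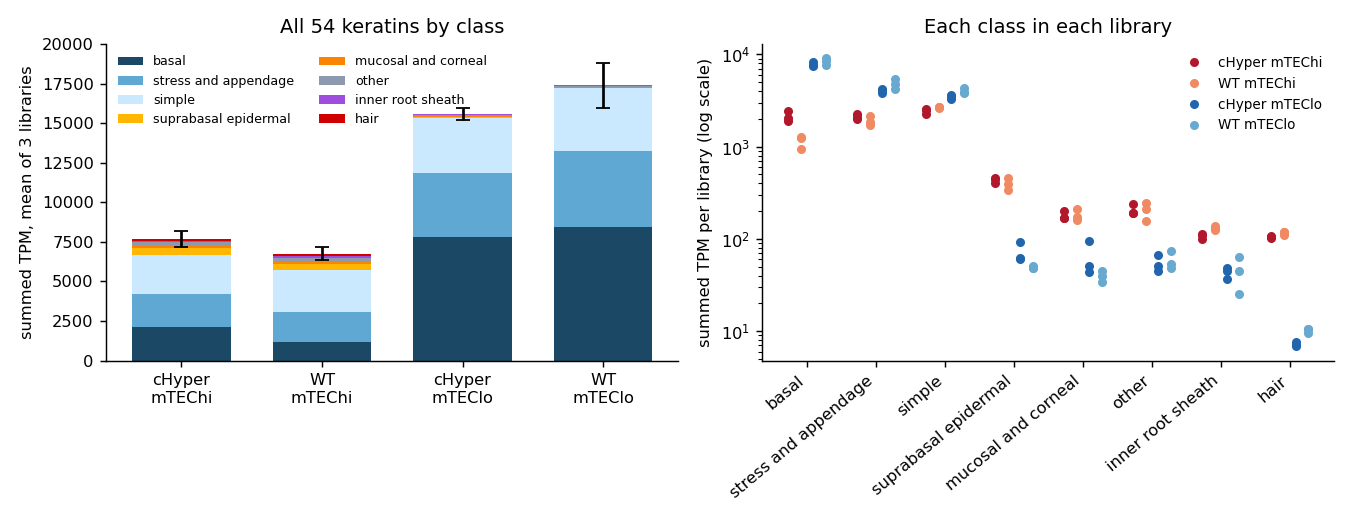
Keratin levels by class. Left, mean summed TPM of 3 libraries per group (bars start at 0; error bars, SD of the sum over all 54 keratins); right, the sum of each class in each library on a log axis (points, 3 per group). Basal keratins sum to 2113 TPM in cHyper mTEChi and 1142 TPM in WT mTEChi, against 7798 TPM in cHyper mTEClo and 8436 TPM in WT mTEClo, while hair keratins sum to 104 and 115 TPM in the mTEChi groups, against 7.19 and 10.2 TPM in the mTEClo groups.

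Between the cell types, most keratins were higher in mTEChi, while 5 of the 6 abundant ones, all but Krt8, were lower. Genes were called at a Benjamini-Hochberg adjusted p under 0.05 in edgeR's quasi-likelihood test over 28932 genes. A gene was tested if as few libraries as a group holds passed a minimum count. Members near 0 in mTEClo therefore entered through mTEChi alone, and their direction was fixed by this filter. The counts and medians below include them. In cHyper 44 of 54 keratins were called (64.5% of all genes tested), 35 higher (64.8%; 38.7% of all genes tested) and 9 lower (16.7%; 25.8% of all genes). In WT 45 were called (69.5% of all genes), 36 higher (66.7%; 40.2% of all genes) and 9 lower (16.7%; 29.4% of all genes). Of these, 43 were called in the same direction in both genotypes, 97.7% of the cHyper calls and 95.6% of the WT calls. The 9 lower ones were the same in both: Krt5, Krt14, Krt17, Krt7, Krt18, Krt6a, Krt42, Krt74 and Krt90. The median log2 fold change of the keratins was 2.26 in cHyper and 2.35 in WT, also with keratins absent from mTEClo set at their lower bound, against 0.13 and 0.12 over all genes. Scaling by library totals moved the all-gene medians to 0.3 in cHyper and 0.34 in WT, and DESeq2 size factors to 0.18 and 0.22. The keratins' groups did not overlap for 46 of 54 in cHyper (68.7% of all genes with a fragment there) and 47 of 54 in WT (73.3%).

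Markers of other cell types also differed between mTEChi and mTEClo. Over all genes tested, 38.7% were called higher and 25.8% lower in mTEChi in cHyper, and 40.2% higher and 29.4% lower in WT. All 10 myeloid markers were called higher in mTEChi in both genotypes, their sum being 498 to 554.5 CPM in cHyper mTEChi and 494 to 675 CPM in WT mTEChi, against 29.4 to 47.98 CPM in cHyper mTEClo and 30.9 to 35.6 CPM in WT mTEClo. Most of the sum in mTEChi was Lyz2, at 433 CPM in cHyper and 446 CPM in WT. Of the myeloid markers, Itgax, Tyrobp and Flt3, at group means of 0.0621 to 0.217 CPM in mTEClo, entered the tests through mTEChi alone. Their direction was fixed by the filter. Thymocyte markers were called higher for 7 of 12 in cHyper and 8 of 12 in WT, with sums of 84.5 to 102 CPM in cHyper mTEChi and 71.9 to 84.5 CPM in WT mTEChi, against 28.5 to 52.4 and 22.1 to 40.2 CPM in cHyper and WT mTEClo. Of the endothelial list 4 of 4 tested genes were called higher, at sums of at most 18.9 CPM in any library. Ptcra of the thymocyte list and Tie1 and Kdr of the endothelial list likewise entered the tests through mTEChi alone. Fibroblast markers summed to between 151 and 265 CPM in all groups, and 4 rose and 3 fell in cHyper mTEChi, while 3 rose and 2 fell in WT mTEChi. The cortical epithelial list summed to 1080 to 1135 CPM in cHyper mTEChi and 922 to 1020 CPM in WT mTEChi, against 3434 to 3699 and 2448 to 3451 CPM in cHyper and WT mTEClo. Its sum in mTEClo was mostly Ctsl, at 2959 CPM in cHyper and 2407 CPM in WT, against 264 and 158 CPM in cHyper and WT mTEChi. Ly75, Dll4, Tbata and Ccl25 of this list were called higher in mTEChi in both genotypes, making 4 of 8 higher and 4 lower in cHyper and 4 higher and 3 lower in WT. The thymoproteasome gene Psmb11 was at 11.7 and 9.76 CPM in cHyper and WT mTEChi. In bulk libraries, marker transcripts from other cells and from mTEC themselves cannot be told apart. Their part in the keratin differences was not tested.

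The basal pair was lower in mTEChi. Krt5, the type II basal keratin, had 1078, 1238 and 1690.1 CPM in cHyper mTEChi, 692, 780.4 and 567 CPM in WT mTEChi, 4827, 5483 and 5369 CPM in cHyper mTEClo and 4971, 5838 and 6902 CPM in WT mTEClo. Its type I partner Krt14 had 479, 576 and 574 CPM in cHyper mTEChi, 243, 258 and 222 CPM in WT mTEChi, 2345, 2625 and 1977 CPM in cHyper mTEClo and 2139, 2388 and 2083 CPM in WT mTEClo. In both genes each mTEChi library lay below each mTEClo library, and within mTEChi each cHyper library lay above each WT library. The log2 fold change of mTEChi over mTEClo was -1.97 ± 0.18 (SE) for Krt5 and -2.09 ± 0.13 for Krt14 in cHyper, and -3.12 ± 0.19 and -3.19 ± 0.14 in WT, with edgeR adjusted p of at most 3.15e-07. Krt15, the third basal keratin and a marker of hair follicle stem cells, was not lower in mTEChi: its log2 fold change was 3.03 ± 0.23 in cHyper (edgeR adjusted p = 4.28e-08) and 0.22 ± 0.20 in WT, where it was not called (0.338).

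**Figure D2:**
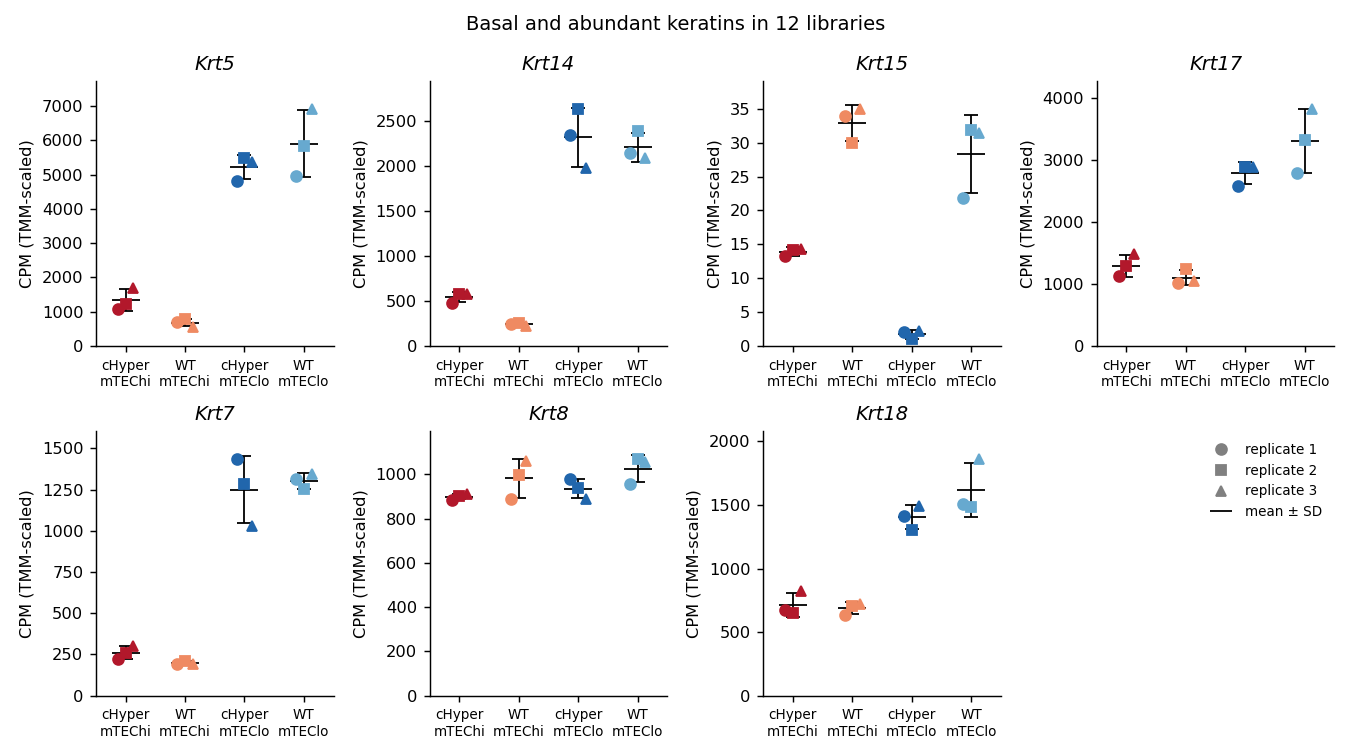
Levels of the 3 basal and 4 other abundant keratins, in TMM-scaled CPM on linear axes from 0, for each of 12 libraries (symbols by replicate number; horizontal bars and whiskers, mean ± SD of 3 libraries). Krt5, Krt14, Krt17, Krt7 and Krt18 are lower in the mTEChi groups, Krt8 lies between 886 and 1068 CPM in every library, and Krt15 is at 0.988 to 2.24 CPM in cHyper mTEClo, below all other libraries.

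Simple-epithelial keratins split. Krt8 was at 886 to 910.1 CPM in cHyper mTEChi and 887 to 1061 CPM in WT mTEChi, against 890.3 to 978 CPM in cHyper mTEClo and 955 to 1068 CPM in WT mTEClo. Its log2 fold change between the cell types was -0.06 ± 0.10 in each genotype and was not called (edgeR adjusted p = 0.647 in cHyper and 0.603 in WT). Krt18, its type I partner, was called lower, by -0.97 ± 0.13 in cHyper (edgeR adjusted p = 1.1e-05) and -1.23 ± 0.13 in WT (7.94e-07). The Krt18 to Krt8 ratio of TPM was accordingly 1.09 ± 0.132 in cHyper mTEChi and 0.957 ± 0.0273 in WT mTEChi, against 2.05 ± 0.207 in cHyper mTEClo and 2.15 ± 0.256 in WT mTEClo. Krt7, a keratin of ducts and glands, was lower in mTEChi, at 261 ± 37.9 CPM in cHyper and 199 ± 11.9 in WT, against 1249 ± 203 in cHyper mTEClo and 1302 ± 46.5 in WT mTEClo (log2 fold change -2.26 ± 0.14 in cHyper and -2.71 ± 0.14 in WT, edgeR adjusted p = 4.23e-09 and 5.82e-10). Krt19 was at 20.8 to 60.4 CPM over all libraries and was not called in either genotype. Krt20, a keratin of gut epithelium, was the simple keratin that rose, with 70.4 to 99.3 CPM in cHyper mTEChi and 96.4 to 112 CPM in WT mTEChi, against 1.7 to 4.27 CPM in cHyper mTEClo and 2.91 to 3.47 CPM in WT mTEClo. Its log2 fold change was 5.00 ± 0.25 in cHyper and 5.02 ± 0.25 in WT (edgeR adjusted p = 7.15e-10 and 3.82e-10).

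Among keratins of stress and skin appendages, Krt17, Krt6a and Krt42 were called lower in mTEChi and none higher. Krt17 fell by 1.11 ± 0.15 on the log2 scale in cHyper (edgeR adjusted p = 1.07e-05) and by 1.58 ± 0.15 in WT (2.29e-07). Krt6a, induced in wounded epidermis, fell by 1.49 ± 0.13 and 1.57 ± 0.13, and Krt42 fell by 1.56 ± 0.31 and 1.82 ± 0.31 in cHyper and WT. Krt16, the usual partner of KRT6, was not called: it averaged 88.5 ± 13.6 CPM in cHyper mTEChi and 64.3 ± 15.3 in WT mTEChi, against 91.8 ± 10.5 and 78.2 ± 20.8 in cHyper and WT mTEClo. With the replicate number as a block, it was called lower in WT (log2 fold change -0.28 without the block). Krt6b and Krt75, at 7.67 to 14.3 CPM in the group means, were not called either. Krt6a and Krt6b each share 44.8% of their 50-base stretches of transcript with other keratins, and 57.2% and 50.1% with any gene, so their counts are uncertain. The far more abundant Krt5 shares 7.36% of its stretches with other keratins, Krt6a among them. The part of Krt5 fragments in the fall of Krt6a was not tested.

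Keratins of differentiated epidermis were higher in mTEChi. Krt10 of the suprabasal pair averaged 169 ± 13.8 CPM in cHyper mTEChi and 112 ± 27.7 in WT mTEChi, against 42.8 ± 9.01 in cHyper mTEClo and 27.8 ± 4.19 in WT mTEClo. Its partner Krt1 averaged 38.1 ± 1.91 CPM and 33.0 ± 9.7 CPM in cHyper and WT mTEChi, against 9.77 ± 4.13 CPM and 5.46 ± 1.83 CPM in cHyper and WT mTEClo. Krt10 rose by 1.98 ± 0.19 (log2) in cHyper and 2.01 ± 0.19 in WT, and Krt1 by 1.98 ± 0.29 and 2.57 ± 0.30. The widest difference was that of Krt9, the keratin of palm and sole skin, with 92.1 to 139 CPM in cHyper mTEChi and 106 to 127 CPM in WT mTEChi, against 1.17 to 4.68 CPM in cHyper mTEClo and 0.703 to 1.41 CPM in WT mTEClo. Krt9 rose by 5.72 ± 0.40 in cHyper and 6.87 ± 0.44 in WT, and Krt77, another suprabasal keratin, by 3.0 ± 0.22 and 3.27 ± 0.22. For these 4 genes the edgeR adjusted p was at most 3.36e-05. In cHyper, the Krt9 value without mTEClo replicate 3 was 6.57. Krt2, of the upper epidermis, was called in WT alone (0.71 ± 0.25, edgeR adjusted p = 0.021) and not in cHyper (0.27 ± 0.25, 0.357), a difference between genotypes that was not called. The WT call of Krt2 was lost without mTEClo replicate 1 or mTEChi replicate 3 (edgeR adjusted p = 0.0537 to 0.0639) and without replicate 3 of every group (0.0522).

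The mucosal and corneal keratins gave 3 rises of 4 in cHyper (38.7% of all genes) and 4 of 4 in WT (40.2% of all genes). Krt13, of internal stratified epithelia, had 39.6 to 46.4 CPM in cHyper mTEChi and 32.2 to 47.2 CPM in WT mTEChi, against 0.804 to 3.83 CPM in cHyper mTEClo and 0.0469 to 1.49 CPM in WT mTEClo. It rose by 4.57 ± 0.49 in cHyper and 5.46 ± 0.53 in WT (edgeR adjusted p = 1.43e-06 and 3.49e-07); the values were 5.40 without cHyper mTEClo replicate 3 and 6.06 without WT mTEClo replicate 1. Its type II partner Krt4 averaged 43.4 ± 5.29 CPM in cHyper mTEChi and 42.0 ± 1.91 in WT mTEChi, against 33.9 ± 6.85 in cHyper mTEClo and 22.6 ± 5.65 in WT mTEClo, and was called in WT (0.89 ± 0.17, edgeR adjusted p = 0.000352) but not in cHyper (0.36 ± 0.17, 0.0818). The difference between the genotypes in the rise of Krt4 was not called (-0.53, edgeR adjusted p = 0.342). Krt12, of the cornea, rose by 2.44 ± 0.20 in cHyper and 3.77 ± 0.23 in WT. Krt76, of the palate, varied between mTEClo libraries, with 14.1, 13.7 and 51.8 CPM in cHyper and 6.97, 12.4 and 29.2 CPM in WT, and in both genotypes replicate 3 was the highest. Its rise of 1.82 ± 0.49 in WT was 2.53 without mTEClo replicate 3. The rise of 1.16 ± 0.48 in cHyper (edgeR adjusted p = 0.0447) was 2.08 without cHyper mTEClo replicate 3, and the call was lost without any of 8 other libraries, namely cHyper mTEClo replicates 1 and 2 and all 6 mTEChi libraries (edgeR adjusted p = 0.0531 to 0.162). DESeq2 did not call Krt76 in cHyper (adjusted p = 0.085).

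Hair shaft keratins were at low levels everywhere. In mTEChi 15 of 16 were called higher in each genotype, beside 38.7% of all genes in cHyper and 40.2% in WT. The median log2 fold change was 5.32 in cHyper and 4.13 in WT. Both the count and the medians include members that entered the tests through mTEChi alone. Krt84, a type II keratin known from the filiform papillae of the tongue as well as hair, was at 31.1, 37.5 and 37.1 CPM in cHyper mTEChi, 33.0, 35.1 and 29.0 CPM in WT mTEChi, 1.26, 1.95 and 1.26 CPM in cHyper mTEClo and 1.23, 1.5 and 1.08 CPM in WT mTEClo. Its log2 fold change of 4.54 ± 0.19 in cHyper (edgeR adjusted p = 1.64e-10) and 4.64 ± 0.19 in WT (8.89e-11) had the smallest adjusted p of any keratin that rose. Krt81 rose by 3.42 ± 0.19 and 4.05 ± 0.20, Krt86 by 3.66 ± 0.29 and 4.21 ± 0.30, and Krt83 by 2.25 ± 0.22 and 2.45 ± 0.22 in cHyper and WT. These type II hair keratins share stretches of sequence (22.1% to 43.3% of their 50-base stretches), so that fragments could be split between them; for Krt86 in WT the value was 4.81 without mTEClo replicate 2. Krt87 rose least, by 1.82 ± 0.18 in cHyper and 0.92 ± 0.17 in WT. Krt36 had 740 fragments in cHyper mTEChi and 669 in WT mTEChi, against 31 and 37 in cHyper and WT mTEClo; its log2 fold change was 4.61 ± 0.46 in cHyper (5.80 without cHyper mTEClo replicate 1) and 3.97 ± 0.45 in WT.

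The remaining type I hair keratins and Krt82 had few fragments in mTEClo, and leaving out 1 mTEClo library moved several of their fitted values by over 1.5-fold without ending a call; for those with under 15 fragments in an mTEClo group, no fitted fold change between the cell types is given gene by gene. Krt31, Krt32, Krt33a, Krt34, Krt35, Krt39, Krt40 and Krt82, with under 15 fragments in each mTEClo group, entered the tests through mTEChi alone. Their direction was fixed by the filter, so their calls are a description. The hair medians above include such fitted values, and in cHyper the middle members were Krt31, with 2 fragments in mTEClo, and Krt82, with 10. Over 3 libraries, Krt33a had 320 fragments in cHyper mTEChi and 351 in WT mTEChi, against 0 in cHyper mTEClo and 6 in WT mTEClo. With a floor of 3 fragments over the group of 3 libraries, this puts cHyper mTEChi at least 119-fold higher than cHyper mTEClo. Krt34 was at least 69.2-fold higher in cHyper mTEChi (186 fragments, against 0), and Krt40 at least 31.9-fold higher in WT mTEChi (93 fragments, against 0). Krt33a, Krt33b, Krt31 and Krt34 share 17.8%, 24.2%, 28.1% and 33.1% of their 50-base stretches with other keratins, so their counts and bounds are uncertain. Krt33b (625 fragments in cHyper mTEChi and 552 in WT mTEChi), Krt82 (451 and 471), Krt35 (236 and 263), Krt39 (166 and 233), Krt32 (185 and 197) and Krt31 (86 and 108) had at most 48 fragments in any mTEClo group. Krt88, with 18 to 46 fragments per group, was the hair keratin that was not called.

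Inner root sheath keratins, which harden the sheath that moulds the growing hair, rose for 5 of 8 in each genotype. Over all genes tested, 38.7% were called higher in cHyper and 40.2% in WT. Of the members that rose, Krt25, Krt26, Krt27 and Krt28 entered the tests through mTEChi alone, so their direction was fixed by the filter. The type I members Krt25, Krt26, Krt27 and Krt28 had 926, 188, 235 and 214 fragments in cHyper mTEChi and 817, 245, 286 and 266 in WT mTEChi, against 25, 0, 0 and 5 in cHyper mTEClo and 10, 0, 3 and 0 in WT mTEClo. Krt26 was at least 70.0-fold higher in cHyper mTEChi and at least 84.0-fold higher in WT mTEChi. Krt71, a type II member, had 46.7, 47.0 and 56.8 CPM in cHyper mTEChi and 55.2, 54.01 and 72.4 CPM in WT mTEChi, against 9.48, 2.05 and 3.74 CPM in cHyper mTEClo and 4.79, 14.6 and 1.22 CPM in WT mTEClo. It rose by 3.28 ± 0.60 in cHyper and 3.08 ± 0.59 in WT; leaving out cHyper mTEClo replicate 1 gave 4.16, and leaving out WT mTEClo replicate 2 gave 4.23.

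The neighbours of Krt71 varied from library to library within mTEClo. Krt72 had 17.4, 25.0 and 0.0 CPM in the 3 WT mTEClo libraries and 14.7 to 21.1 CPM in cHyper mTEClo. Krt73 had 11.2, 14.3 and 0.122 CPM in cHyper mTEClo and 12.9 to 21.5 CPM in WT mTEClo. Krt74 had 2.83, 0.787 and 9.24 CPM in WT mTEClo and 6.07 to 10.6 CPM in cHyper mTEClo. The libraries that stood low were replicate 3 for Krt72 and Krt73, each in a different genotype, and replicate 2 for Krt74, and no mTEChi library was at 0 for any of them. Krt74 was called lower in mTEChi in both genotypes (-2.71 ± 0.59 in cHyper and -2.68 ± 0.63 in WT, or -1.49 without WT mTEClo replicate 3). Krt72 and Krt73 were not called; Krt73 was called higher in cHyper with the replicate number as a block (1.46 ± 0.62 and edgeR adjusted p = 0.0513 without it).

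Keratins of other or mixed sites rose for 6 of 7 in each genotype, beside 38.7% of all genes in cHyper and 40.2% in WT. Krt78 averaged 96.8 ± 14.3 CPM in cHyper mTEChi and 84.9 ± 8.35 in WT mTEChi, against 11.7 ± 0.799 in cHyper mTEClo and 8.42 ± 3.36 in WT mTEClo, a rise of 3.05 ± 0.22 in cHyper and 3.31 ± 0.23 in WT. Krt79, of the hair canal and sebaceous duct, rose by 1.88 ± 0.19 and 2.11 ± 0.19, Krt23 by 2.27 ± 0.18 and 2.25 ± 0.18, Krt222 by 2.2 ± 0.20 and 2.1 ± 0.20, and Krt80 by 1.30 ± 0.20 and 1.66 ± 0.20 in cHyper and WT. Krt24 had 2303 fragments in cHyper mTEChi and 1794 in WT mTEChi, against 39 and 5 in cHyper and WT mTEClo. Krt24 entered the tests through mTEChi alone, and its direction was fixed by the filter. Krt90 was the member that was lower, by -1.04 ± 0.39 in cHyper and -1.91 ± 0.40 in WT. The cHyper call of Krt90 was lost without cHyper mTEClo replicate 3 or cHyper mTEChi replicate 1 or 2 (edgeR adjusted p = 0.0832 to 0.13), and Krt90 was not called there with scaling by library totals (edgeR adjusted p = 0.0726) or by DESeq2 (adjusted p = 0.0811).

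Along the chromosomes, rises and falls came in runs. The 20 consecutive keratin genes from Krt222 to Krt13 on chromosome 11 (99232761 to 100269871 for the whole set, mm10) were all called higher in mTEChi in both genotypes. The remaining 7, from Krt15 to Krt42, held Krt14, Krt17 and Krt42, all lower, the uncalled Krt16 and Krt19, Krt15, higher in cHyper, and Krt9, higher in both. On chromosome 15 the type II hair keratins from Krt81 to Krt82 and the keratins from Krt1 to Krt76 were higher in both genotypes, and the stretch from Krt90 to Krt5 held 3 falls and no rise. Neighbouring keratins are related in sequence and share these libraries, and the run from Krt222 to Krt13 holds members that entered the tests through mTEChi alone. The runs are therefore a description.

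**Figure D3:**
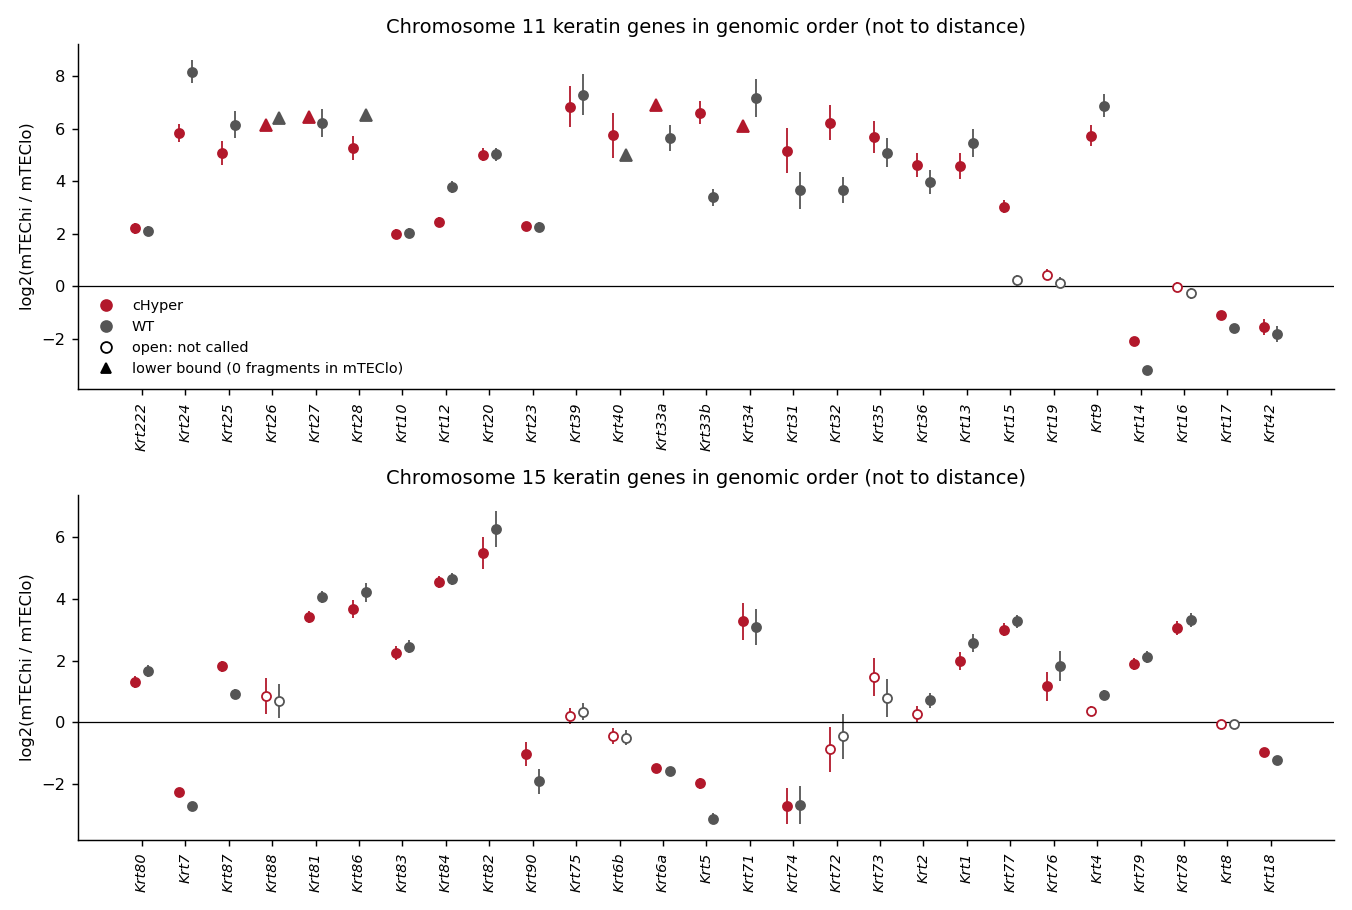
Log2 fold change of mTEChi over mTEClo for the keratin genes in their genomic order on chromosomes 11 and 15, at equal spacing (circles, edgeR fit with SE bars, filled where called; triangles, lower bounds where mTEClo had 0 fragments; cHyper left of WT for each gene). Genes from Krt222 to Krt13 lie above 0, and Krt14, Krt5, Krt17, Krt7, Krt18, Krt6a, Krt42, Krt74 and Krt90 lie below 0 in both genotypes.

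Promoter letters were compared because so many members moved together. The RefSeq promoter table (GRCm38.p6, 250 bases before to 50 after each start) held 37 promoters of 36 keratins; Krt15 and Krt17 were among the members it lacked. The hexamer TATAAA, searched on both strands, was in 19 of the 37 (51.4%), against 13.6% of all 32851 promoters of this length. By member, it was in 15 of the 26 keratins with a promoter that rose in WT mTEChi, in 1 of the 6 that fell (Krt42) and in 3 of the 4 not called. Krt14 is among the 6 that fell, and its window lies inside the deposited gene. The p53 half-site was in 8.11% of keratin promoters, those of Krt5, Krt76 and Krt82, against 8.36% of all. The sequence TGANTCA of the factor AP-1 was in 5.41% against 7.81%, and the GC box GGGCGG in 5.41% against 35.7%. A match is a description of these letters and not a site in use.

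Of the risers with TATAAA, Krt84 and Krt20 had the smallest adjusted p in WT, and their promoters are shown with the hexamer in capitals. In Krt20 it begins at position -29 from the start, on the gene's own strand; in Krt84 it begins at position -206 and is read on the other strand. The Krt20 promoter is at chr11:99438104-99438403 and the Krt84 promoter at chr15:101532771-101533070, both on the minus strand of GRCm38.p6.
Krt20: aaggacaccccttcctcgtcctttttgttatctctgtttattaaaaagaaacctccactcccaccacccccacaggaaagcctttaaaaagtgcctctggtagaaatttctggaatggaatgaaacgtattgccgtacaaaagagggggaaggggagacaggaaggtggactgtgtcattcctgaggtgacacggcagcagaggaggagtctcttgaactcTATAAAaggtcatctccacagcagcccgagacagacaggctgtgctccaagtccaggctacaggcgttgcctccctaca
Krt84: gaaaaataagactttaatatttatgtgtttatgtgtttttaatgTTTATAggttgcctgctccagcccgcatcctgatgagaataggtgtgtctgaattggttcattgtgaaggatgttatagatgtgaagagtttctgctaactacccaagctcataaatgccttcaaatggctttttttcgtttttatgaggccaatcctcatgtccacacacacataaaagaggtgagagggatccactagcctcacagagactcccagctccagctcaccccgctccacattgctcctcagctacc

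Between the genotypes in mTEClo, 7 of 54 keratins were called (9.16% of all genes tested), 3 higher in cHyper (4.53% of all genes) and 4 lower (4.64% of all genes). Krt12, Krt24 and Krt79 were higher, and Krt15, Krt222, Krt87 and Krt33b lower. The median log2 fold change of cHyper over WT was -0.03, against 0.00 over all genes. The groups did not overlap for 11 of 54 keratins (25.2% of all genes with a fragment in mTEClo). The 6 abundant keratins were not called, with log2 fold changes between -0.25 (Krt17) and 0.07 (Krt14).

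Krt15 had the largest difference among the 44 keratins of at least 1 CPM with fragments in every group. It had 2.01, 0.988 and 2.24 CPM in cHyper mTEClo and 21.8, 31.8 and 31.5 CPM in WT mTEClo. Every cHyper library was below every WT library, by a log2 fold change of -4.05 ± 0.24 (edgeR adjusted p = 1.78e-07), and the call held in every alternative run. Per length, this changed its standing against Krt14: the Krt15 to Krt14 ratio of TPM was 0.000785 ± 0.000381 in cHyper mTEClo and 0.0128 ± 0.00248 in WT mTEClo.

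The hair keratins called were both lower in cHyper mTEClo. Krt87 shares 36.9% and Krt33b 24.2% of its 50-base stretches with other genes, so their counts are uncertain. Krt87 had 1.99, 2.0 and 2.32 CPM in cHyper mTEClo and 4.91, 4.26 and 3.8 CPM in WT mTEClo, without overlap (log2 -1.05 ± 0.18, edgeR adjusted p = 0.00165). Krt33b had 0, 0.0919 and 0.0814 CPM in cHyper mTEClo and 0.543, 0.416 and 0.328 CPM in WT mTEClo, on 6 and 48 fragments. Its log2 fold change of -2.96 ± 0.53 (edgeR adjusted p = 0.00271) was -2.29 without cHyper mTEClo replicate 1 and -3.75 without cHyper mTEClo replicate 2, and the call was lost with only the compared groups in the fit (edgeR adjusted p = 0.0607). Krt222, a keratin-like protein, had 6.01, 3.1 and 4.36 CPM in cHyper mTEClo and 7.7, 6.71 and 8.63 CPM in WT mTEClo (-0.77 ± 0.20, edgeR adjusted p = 0.0268). Without cHyper mTEClo replicate 2 or 3, or WT mTEClo replicate 1 or 3, the Krt222 call was lost (edgeR adjusted p = 0.0586 to 0.0967), as it was with only the compared groups (0.0799) and without replicate 3 of every group (0.151).

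Of the 3 keratins higher in cHyper mTEClo, Krt12 had 3.11, 3.19 and 1.87 CPM in cHyper mTEClo and 0.968, 0.833 and 1.03 CPM in WT mTEClo (log2 1.56 ± 0.23, edgeR adjusted p = 0.000596). Krt79 had 16.4, 17.5 and 18.4 CPM in cHyper mTEClo and 9.3, 11.7 and 6.47 CPM in WT mTEClo (0.91 ± 0.19, 0.00743). Neither pair of groups overlapped. Krt24 had 0.137, 0.597 and 0.285 CPM in cHyper mTEClo and 0.0472, 0.0231 and 0.0938 CPM in WT mTEClo, on 39 and 5 fragments (2.80 ± 0.67, edgeR adjusted p = 0.0161). Without cHyper mTEClo replicate 2 the Krt24 value was 1.96, and the call was lost without that library or WT mTEClo replicate 1 or 2 (edgeR adjusted p = 0.0607 to 0.0976). The Krt24 call was also lost with only the compared groups (edgeR adjusted p = 0.0984) and in limma-voom (adjusted p = 0.0865). Beside these genes, Aire was higher in cHyper mTEClo (log2 1.64, edgeR adjusted p = 2.39e-05), while Cd80, another gene higher in mTEChi, was lower (-1.03, 0.0055). Of the fibroblast markers, Col3a1 (1.51, edgeR adjusted p = 0.000701) and Dpt (2.55, 0.000769) were higher and Pdgfra (-1.61, 0.00228) lower in cHyper mTEClo. The myeloid markers Fcer1g (-1.75, edgeR adjusted p = 0.0426) and C1qb (-1.32, 0.0489) were lower, and the cortical marker Tbata (0.64, 0.00296) higher. The part of any of these in the keratin differences was not tested. Krt9, Krt20 and Krt77, higher in mTEChi than in mTEClo, had log2 fold changes of 1.08, -0.29 and 0.34 and were not called.

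With the replicate number as a block, 10 keratins were called in mTEClo: the same 7, and Krt10, Krt4 and Krt19. Over all genes, calls also grew with the block, from 2651 to 3916. Without the block Krt10 stood at 0.61 ± 0.18 (edgeR adjusted p = 0.0513), with 39.9, 35.5 and 52.9 CPM in cHyper mTEClo and 29.5, 30.9 and 23.1 CPM in WT mTEClo, groups that did not overlap. Krt4 stood at 0.58 ± 0.17 (0.0517), with overlapping groups.

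**Figure D4:**
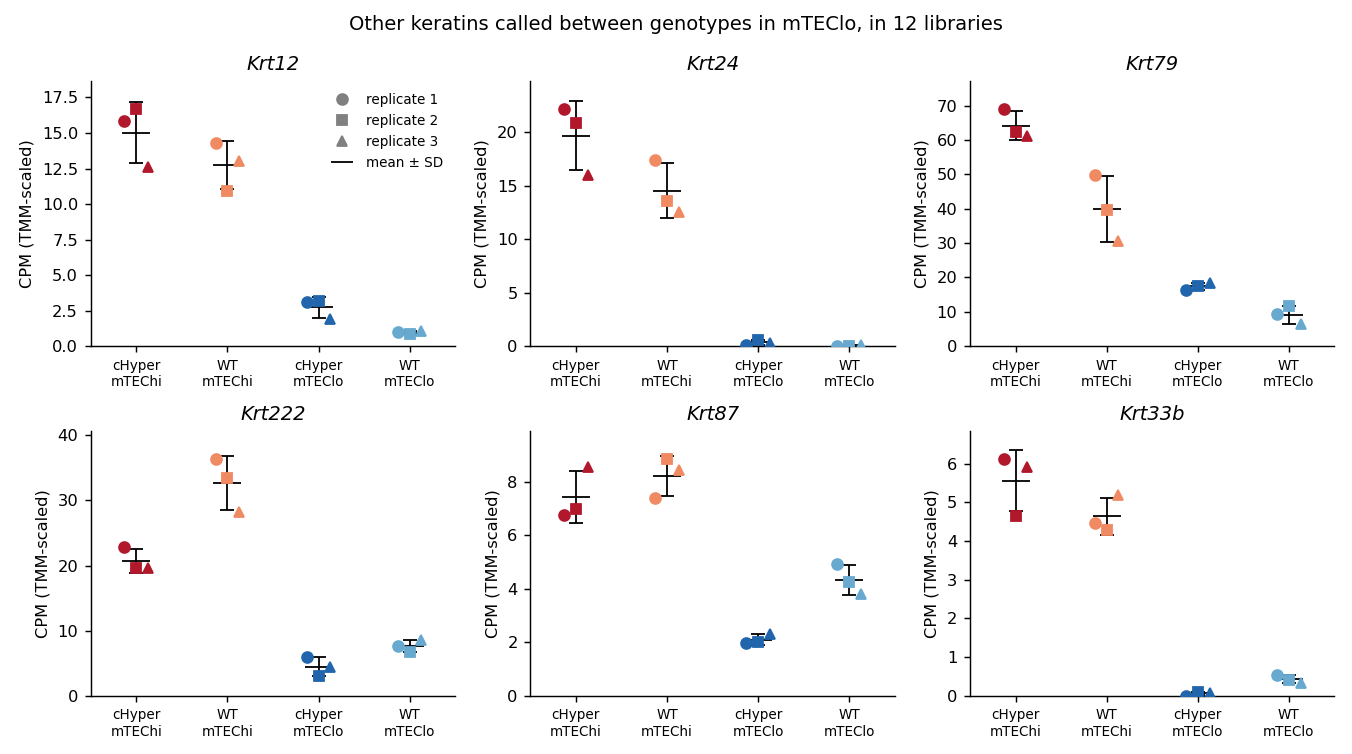
Levels of the keratins other than Krt15 called between genotypes in mTEClo, in TMM-scaled CPM on linear axes from 0, for each of 12 libraries (symbols by replicate number; horizontal bars and whiskers, mean ± SD of 3 libraries). In mTEClo, Krt12, Krt24 and Krt79 lie higher and Krt222, Krt87 and Krt33b lower in cHyper than in WT, all at levels under those of the mTEChi groups.

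In mTEChi, 3 of 54 keratins were called between the genotypes (1.98% of all genes tested), and they are the 3 basal keratins. Krt14 and Krt5 were higher in cHyper (1.56% of all genes) and Krt15 was lower (0.418% of all genes). The median log2 fold change over the 54 was -0.04, against 0.00 over all genes, and the groups did not overlap for 10 of 54 (25.7% of all genes with a fragment in mTEChi). Krt14 and Krt5 rose by 1.17 ± 0.13 (edgeR adjusted p = 0.000215) and 0.97 ± 0.18 (0.0101), with each cHyper library above each WT library. The Krt5 call was lost without cHyper mTEChi replicate 3 or WT mTEChi replicate 1 or 3 (edgeR adjusted p = 0.0511 to 0.0566), and the Krt14 call in none of the alternatives run. Krt15 had 13.2, 14.2 and 14.35 CPM in cHyper mTEChi and 34.0, 29.95 and 34.9 CPM in WT mTEChi, without overlap (-1.24 ± 0.20, edgeR adjusted p = 0.00405).

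The basal keratins thus made up 27.4% ± 2.2 of keratin TPM in cHyper mTEChi and 16.9% ± 1.64 in WT mTEChi, against 50.1% ± 1.8 in cHyper mTEClo and 48.5% ± 0.705 in WT mTEClo. Krt14 and Krt5 kept to each other, with a Krt14 to Krt5 ratio of TPM of 0.52 ± 0.0842 in cHyper mTEChi and 0.447 ± 0.0396 in WT mTEChi, against 0.555 ± 0.0824 and 0.475 ± 0.086 in cHyper and WT mTEClo. The Krt15 to Krt14 ratio was 0.0257 ± 0.0016 in cHyper mTEChi and 0.137 ± 0.0204 in WT mTEChi. The other abundant keratins were not called in mTEChi, at 0.23 ± 0.14 for Krt17, 0.39 ± 0.13 for Krt7, -0.13 ± 0.10 for Krt8 and 0.06 ± 0.13 for Krt18. Among the mTEC and cortical markers lower in mTEChi than in mTEClo in both genotypes, 2 were called higher in cHyper mTEChi: Ccl21a averaged 732 ± 253 CPM in cHyper mTEChi and 356 ± 37.7 in WT mTEChi (log2 1.04, edgeR adjusted p = 0.0124), and Ctsl 264 ± 39.6 and 158 ± 26.8 CPM (0.74, 0.0283). The other such markers, Cxcl12 (0.06, edgeR adjusted p = 0.919) and Prss16 (0.49, 0.162), were not called between the genotypes there, nor was Synm (0.21, 0.437), a filament gene likewise lower in mTEChi. Their part in the keratin difference was not tested.

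With the replicate number as a block, 6 keratins were called in mTEChi: the same 3, with Krt222 lower and Krt79 and Krt16 higher in cHyper. Over all genes, calls also grew with the block, from 572 to 1250. Without it Krt222, Krt79 and Krt16 stood at -0.66 ± 0.19 (edgeR adjusted p = 0.0919), 0.68 ± 0.18 (0.0734) and 0.46 (0.287). Krt222 had 22.8, 19.7 and 19.6 CPM in cHyper mTEChi and 36.3, 33.4 and 28.3 CPM in WT mTEChi, and Krt79 had 68.9, 62.4 and 61.2 CPM in cHyper mTEChi and 49.7, 39.6 and 30.6 CPM in WT mTEChi. In neither did the groups overlap.

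The promoters of the basal pair are shown because these genes moved together between the cell types and, in mTEChi, between the genotypes. The capitals in Krt5 mark the p53 half-site, which begins at position -95; none of the 4 motifs searched was in the Krt14 window. The Krt5 promoter is at chr15:101712856-101713155 and the Krt14 promoter at chr11:100205981-100206280, both on the minus strand of GRCm38.p6. RefSeq's start of Krt14 and the whole window lie inside the deposited gene, which spans chr11:100203162-100207548. The lack of motifs in this window therefore does not describe the stretch before the start of the deposited gene.
Krt5: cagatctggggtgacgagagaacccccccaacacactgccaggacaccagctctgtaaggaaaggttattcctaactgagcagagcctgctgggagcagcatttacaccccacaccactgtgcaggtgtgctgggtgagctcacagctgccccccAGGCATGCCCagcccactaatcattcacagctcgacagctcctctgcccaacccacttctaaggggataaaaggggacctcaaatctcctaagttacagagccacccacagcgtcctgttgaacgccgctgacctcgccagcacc
Krt14: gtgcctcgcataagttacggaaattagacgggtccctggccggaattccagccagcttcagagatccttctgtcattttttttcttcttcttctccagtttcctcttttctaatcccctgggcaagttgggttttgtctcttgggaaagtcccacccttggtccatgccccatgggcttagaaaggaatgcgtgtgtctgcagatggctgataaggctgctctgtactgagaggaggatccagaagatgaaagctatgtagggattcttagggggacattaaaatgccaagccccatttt

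The genotype difference itself varied between the cell types for 5 of 54 keratins, by the interaction term of the same fit (2.06% of all genes tested). The difference in mTEChi minus that in mTEClo was positive for 4 (1.13% of all genes) and negative for Krt12 (0.926% of all genes). For Krt15 it was 2.81 ± 0.31 on the log2 scale (edgeR adjusted p = 0.000392), the difference between -1.24 in mTEChi and -4.05 in mTEClo. For Krt14 it was 1.10 ± 0.18 (0.00569) and for Krt5 1.15 ± 0.25 (0.0313), genes that were called in mTEChi and had log2 fold changes of 0.07 ± 0.13 and -0.18 ± 0.18 in mTEClo. For Krt33b it was 3.22 ± 0.60 (edgeR adjusted p = 0.0123), and it was 2.55 and 4.01 without cHyper mTEClo replicate 1 or 2; without replicate 3 of every group its call was lost (3.63, edgeR adjusted p = 0.0589). For Krt12 it was -1.32 ± 0.30 (0.0353). The Krt12 call was lost without any of 10 libraries, all but cHyper mTEClo replicate 3 and WT mTEChi replicate 2 (edgeR adjusted p = 0.0511 to 0.0887) and in limma-voom (adjusted p = 0.0915). The Krt5 call was lost without any of 7 libraries, namely cHyper mTEClo replicates 1 and 2, WT mTEClo replicate 3, cHyper mTEChi replicates 2 and 3 and WT mTEChi replicates 1 and 3 (edgeR adjusted p = 0.056 to 0.0733), and without replicate 3 of every group (0.74, edgeR adjusted p = 0.0979).

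**Figure D5:**
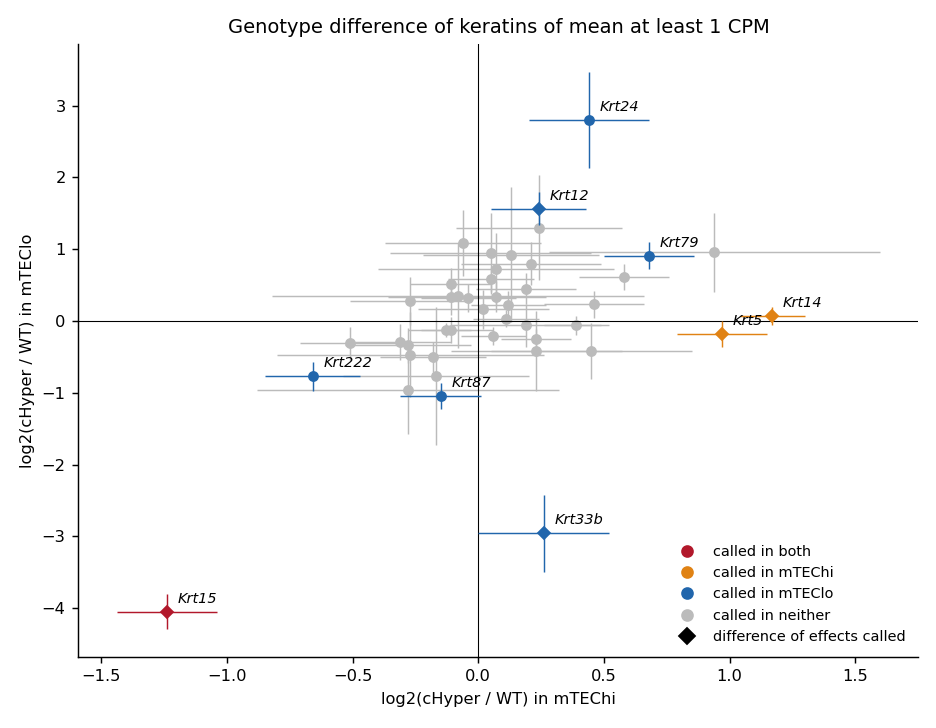
Log2 fold change of cHyper over WT in mTEChi (horizontal) and in mTEClo (vertical), for the 44 keratins of mean at least 1 CPM with fragments in every group (points, edgeR fit; bars, SE; colours, where called; diamonds, interaction called). Krt15 lies at -1.24 and -4.05, and Krt14 and Krt5 lie at 1.17 and 0.97 in mTEChi and near 0 in mTEClo.

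Desmosome and plakin genes, whose proteins anchor keratin filaments at cell contacts, were set beside the keratins. In cHyper, 5 of 19 were higher and 11 lower in mTEChi than in mTEClo; in WT 7 were higher and 12 lower. Over all genes tested, 38.7% were higher and 25.8% lower in cHyper, and 40.2% higher and 29.4% lower in WT. The median log2 fold change was -0.66 in cHyper and -0.64 in WT. Those with the smallest p all fell: Dst (-1.76 in cHyper and -2.07 in WT), a plakin of the basal cell surface, Dsc3 (-1.84 and -2.45), Pkp4 (-1.81 and -2.08), Perp (-1.40 and -1.87) and Plec (-1.19 and -1.24). Between the genotypes, 3 of 19 were called in mTEChi (1.98% of all genes), all higher in cHyper: Dsc3 (0.87, edgeR adjusted p = 0.00125), Pkp3 (0.61, 0.00242) and Perp (0.72, 0.00589), the last a known p53 and p63 target. In mTEClo 2 of 19 were called (9.16% of all genes), Pkp2 (0.70, edgeR adjusted p = 0.0101) and Dsg1a (0.60, 0.0177), both higher in cHyper. With the replicate number as a block, Jup and Dsg1b were also called in mTEClo, making 4. For the interaction 0 of 19 were called by edgeR (6 with an unadjusted p under 0.05) and 0 by limma-voom, but 3 by DESeq2 and 3 with the block, namely Dsc3, Dsg1a and Dsg1b.

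Of 22 epithelial transcription factors, 14 were higher and 6 lower in mTEChi in cHyper, and 12 higher and 8 lower in WT, beside 38.7% and 25.8% of all genes in cHyper and 40.2% and 29.4% in WT. The counts of higher genes include Msx2, Lhx2 and Hoxc13, at group means of at most 0.0781 CPM in mTEClo. These entered the tests through mTEChi alone, so their direction was fixed by the filter. Trp63, the p53 relative that maintains basal cells, fell by 2.23 in cHyper and 2.52 in WT on the log2 scale, while Dlx3 (4.93 and 5.68), Tfap2c (3.15 and 2.62), Grhl3 (3.35 and 2.60), Ovol1 (3.18 and 3.45) and Elf5 (3.69 and 3.67) rose; Trp63 was chosen after its values were seen. Between the genotypes in mTEChi, 0 of 22 were called by edgeR, 4 having an unadjusted p under 0.05, while DESeq2 called 1, limma-voom 0 and the fit with the replicate number as a block 1, which was Trp63. Trp63 averaged 146 ± 16.2 CPM in cHyper mTEChi and 98.9 ± 19.4 in WT mTEChi (0.55, edgeR adjusted p = 0.105). In mTEClo 3 of 22 were called (9.16% of all genes), Klf4 (-0.83, edgeR adjusted p = 0.00274), Grhl3 (-0.82, 0.0152) and Gata3 (-0.75, 0.041), all lower in cHyper; with the block 6 of 22 were called.

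Of 13 other intermediate filament genes, lamins included, 8 were higher and 2 lower in mTEChi in each genotype, beside 64.5% of all genes called in cHyper and 69.5% in WT. Among the higher ones, Ina, at 0.142 CPM in cHyper mTEClo and 0.218 in WT mTEClo, entered the tests through mTEChi alone. Prph (6.21 in cHyper and 7.45 in WT), Nefh (5.33 and 5.80), Nefm (3.88 and 4.04) and Nefl (3.02 and 2.25), of neurons, rose, and Synm (-3.29 and -3.58), of muscle, fell. Between the genotypes in mTEClo, Nefl (-1.29, edgeR adjusted p = 0.000869) and Lmna (-0.75, 0.00626) were lower and Gfap (1.18, 0.046) higher in cHyper, 3 of 13 beside 9.16% of all genes; with the replicate number as a block Vim and Lmnb1 were added. In mTEChi, 0 of 13 were called by edgeR, 2 having an unadjusted p under 0.05, while DESeq2, limma-voom and the fit with the block called 1 each, in the last Nefm.

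Counts of some keratins cannot be kept apart from their surroundings. The exons of 12 members overlap a gene on the opposite strand, and the strand setting of the counting is not given in the sources used here. The largest partner was Gm44323, with 141753 fragments over the 12 libraries beside 1420457 for Krt5. For Krt12 the partner A830036E02Rik had 3806 fragments beside 3711, so the Krt12 values above are uncertain. Krt8 shares 29.7% of its 50-base stretches with other genes, the copy Krt8-ps and its neighbour Gm36026 among them, and Krt14 shares 13.9% with Krt16 and Krt17. Krt15 shares 0.64%.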

How the data were processed

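RNA was measured in 12 libraries of sorted mouse mTEC (polyadenylated RNA, stranded kit, paired ends, per the labels' protocols). Per the submitters' processing notes, featureCounts (Subread 2.0.1), TopHat2 2.1.1 and SAMtools 1.9 were used, with mm10. The annotation release and strand setting are not stated there. The deposited table holds fragment counts per gene, which the authors did not normalize, and the authors' TPM; recomputed TPM differed by at most 0.207. Counts were tested with edgeR 4.0.16 (TMM, filterByExpr by group, quasi-likelihood test, all 12 libraries in 1 fit on 4 group means, R 4.3.3) over 28932 genes, with Benjamini-Hochberg adjustment and a threshold of 0.05; CPM are TMM-scaled. The code was tested on simulated data. Depth was 22023800 to 47926607 fragments per library, and bounds from 0 counts use a floor of 3 and cover counting error only. The members and gene lists were chosen with earlier results of these data known. Keratins of at least 1 CPM on average, or called in any comparison, are named with values, the others with fragment totals; of the other lists, at most 4 called genes with the smallest p per list and comparison are named. Same-numbered libraries deviated together from their group means (r = 0.147 to 0.42 in 18 of 18 pairs, against -0.309 to 0.079 in 36 other pairs), so the replicate number pairs them, and a fit with it as a block was an alternative. Other alternatives were DESeq2 1.42.0, limma-voom (limma 3.58.1), 2 other scalings, no filter, the compared groups alone, and leaving out libraries.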

Additional observations from a re-analysis of the deposited data

Results flagged for a closer look

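For 5 keratins the genotype difference itself differed between mTEChi and mTEClo, by the interaction term of the edgeR fit (difference in mTEChi minus that in mTEClo, log2, 3 libraries per group). Krt15 differed by 2.81, Krt14 by 1.1, Krt5 by 1.15 and Krt33b by 3.22, and Krt12 by -1.32. Krt14 and Krt15 kept the call in every alternative fit run for them. Krt33b rests on 6 fragments in cHyper mTEClo and 48 in WT mTEClo.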

How the results depend on the processing

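Over all keratins, comparisons and alternatives, 5216 values kept their side of the threshold, 77 passed it newly and 52 no longer passed it. Of the values called with or without the alternative, 0 reversed direction. Values called in neither run could change sign and still count as kept, as for Krt39 between genotypes in mTEClo (-0.07, with alternatives from -1.94 to 2.35). Between genotypes in mTEChi, where 3 keratins were called, 5 were called by DESeq2, by limma-voom and with only the compared groups, and 6 without the filter and with the replicate number as a block. In mTEClo, where 7 were called, 11 were called without the filter, 10 with the block and 5 with only the compared groups, which lost Krt222, Krt24 and Krt33b and gained Krt10. Over all genes there, 2651 were called, against 2983 without the filter, 3916 with the block and 1876 with only the compared groups. Between the cell types the block added Krt16 in WT and Krt19 and Krt73 in cHyper (46 calls each); beside these and the calls given in the report, the pairing changed no other call of a keratin. Leaving out libraries gave 6 to 9 calls in mTEClo, 2 to 4 in mTEChi, 44 to 48 between the cell types in WT, 42 to 47 in cHyper, and 3 to 5 for the interaction, where 5 were called with all libraries; without replicate 3 of every group it was 3. Over all genes, 572 were called between genotypes in mTEChi, against 1419 by DESeq2, 862 by limma-voom, 1071 with only the compared groups, 1250 with the block and 295 to 698 without single libraries or replicate 3. For the interaction 595 were called, against 1415 by DESeq2, 1103 without the filter, 1186 with the block and 284 to 620 without single libraries or replicate 3. Summed TPM moved by less than the spread between libraries. With so few libraries per group, leaving out a single library must move the mean by less than the SD. That comparison therefore cannot show whether the sums are stable. The cause of the shifts in the numbers of calls was not tested. Keratins with few fragments in mTEClo, such as Krt31, Krt32 and Krt35 with 2 to 14 per group, leave fold changes imprecise.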

Other observations

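Among non-keratin genes averaging at least 10 CPM, those whose levels followed Krt14 most closely over the 12 libraries (Pearson r of log2(CPM + 1) of at least 0.9945, a description over libraries that share 4 groups) were Plxdc2, Sectm1a, Jag2, Itgb4 and Zfp763. Those most like Krt15 were Plch2, Spock2, Fbln2, Rsad2 and Oasl1, with r between 0.9532 and 0.9745. For Krt5 they were Gm44323, which overlaps it on the opposite strand, Arhgef19, Gm10591, Ccl21a and Ifitm3, with r of at least 0.9953.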
